A study of Mus musculus with 2 samples.

Results

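The genes of the mitochondrial genome and 4 of their nuclear copies were examined in total RNA from mouse heart. Members were all genes whose symbol starts with mt-, and the chromosome 1 pseudogenes Gm28661, Gm29216, Gm10925 and Gm28437. This gave 41 of 55536 annotated genes: 13 protein genes, 2 ribosomal RNAs, 22 transfer RNAs and the 4 pseudogenes. The mt- genes were taken by name, whereas the pseudogenes were chosen by their high TPM in these same libraries, so their levels are a description. The series held 1 group of 2 libraries, both from female B6CASTF1/J mice aged 14 days, a cross between strains C57BL/6J and CAST/EiJ. The input was 300 ng of RNA per library, and the ERCC spike-ins were of a profile for stranded libraries with reduced ribosomal RNA. No treatment or other genotype was compared. Both libraries carry the same donor label, and a label that mentions 3x females leaves unclear whether animals were pooled, so an SD over the 2 libraries may be partly technical. Apart from the strain name B6CASTF1/J, no label states which strain was the mother and so gave the mitochondrial genome. The reference mm10 is a C57BL/6J genome.

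The mitochondrial genome is a small circle of DNA that encodes core subunits of the respiratory chain and of the ATP synthase, together with the ribosomal and transfer RNAs needed to make them. Its strands are read as long precursor RNAs, and most genes lie directly beside a transfer RNA where the precursor is cut. Heart muscle is rich in mitochondria because contraction runs on ATP made by oxidative phosphorylation. Pieces of mitochondrial DNA have also been copied into nuclear chromosomes during evolution, and where such a copy is recent, a short RNA read can match the gene and the copy equally well.

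Each library was quantified in 2 ways in the deposited tables, called here the first quantification (gene tables with expected counts) and the second (transcript tables with estimated counts). Expected counts totalled 36404376 and 34569708 in replicates 1 and 2, and the limit set by a count of 0 was 3 counts, which is 0.0829 and 0.0873 CPM (counts scaled to the total of annotated genes). All 8 cardiomyocyte markers reached 1 TPM (a level corrected for transcript length and scaled to the library), with summed levels of 37005 and 38707 TPM in replicates 1 and 2.

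The 4 pseudogenes lie within a row of 7 pseudogenes on the minus strand of chromosome 1 (mm10), each a copy of 1 mitochondrial gene. Gm28661 (24614885 to 24615565) copies mt-Co2, Gm29216 (24615706 to 24616197) the end of mt-Co1, Gm10925 (24613974 to 24614651) mt-Atp6, and Gm28437 (24613189 to 24613971) mt-Co3. Gm28661 aligned to mt-Co2 over 681 bases with 0 differences, and mt-Co2 runs on for 3 bases. The ends of both transcripts are shown because these 3 bases, in capitals, are the only ones by which they differ. The mt-Co2 stretch is chrM:7637-7696 on the plus strand and that of Gm28661 is chr1:24614885-24614941 on the minus strand, both 5′ to 3′ from GENCODE M21.
mt-Co2: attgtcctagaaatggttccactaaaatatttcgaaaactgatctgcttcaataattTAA
Gm28661: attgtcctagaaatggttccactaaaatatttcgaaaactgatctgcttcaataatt

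The same held for mt-Atp6 and Gm10925, with 678 bases, 0 differences and 3 bases past the copy. mt-Co3 and Gm28437 shared 783 bases with 0 differences, and 1 base of mt-Co3 lay past the copy. The last bases of these pairs are given with the bases past the copy in capitals: mt-Atp6 chrM:8548-8607 and mt-Co3 chrM:9331-9390 on the plus strand, Gm10925 chr1:24613974-24614030 and Gm28437 chr1:24613189-24613247 on the minus strand.
mt-Atp6: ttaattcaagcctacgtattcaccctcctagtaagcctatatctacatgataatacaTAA
Gm10925: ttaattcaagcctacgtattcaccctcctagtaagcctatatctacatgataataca
mt-Co3: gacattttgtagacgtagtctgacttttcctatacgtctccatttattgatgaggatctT
Gm28437: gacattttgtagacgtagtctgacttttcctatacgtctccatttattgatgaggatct

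Gm29216 was the exception, with bases of its own. It matched bases 1054 to 1545 of mt-Co1, 492 bases with 6 differences (98.8% identity), all at its start. Written as the mt-Co1 base, its position counted from 1 at the 5′ end of the mt-Co1 transcript, and the Gm29216 base, they were T1056A, C1057T, A1059G, A1060G, C1062A and A1066T. The stretch that holds them is shown with the differing bases in capitals, from chrM:6381-6440 on the plus strand and chr1:24616138-24616197 on the minus strand.
mt-Co1: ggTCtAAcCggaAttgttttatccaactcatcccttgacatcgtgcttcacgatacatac
Gm29216: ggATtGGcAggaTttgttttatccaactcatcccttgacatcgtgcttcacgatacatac

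What these identities mean for reads was measured with windows of 100 bases. Effective lengths in the first quantification were 99 bases below the transcript lengths. This is the number of start positions of a 100-base read, so that size was taken. In the second quantification they were 1210 and 1211 for mt-Co1 (1545 bases) in replicates 1 and 2. For mt-Atp6 (681 bases) they were 346 and 347. The windows thus follow the lengths of the first quantification only. Of the windows of Gm28661, Gm10925 and Gm28437, 0 of 582, 0 of 579 and 0 of 684 were absent from their mitochondrial gene. Gm29216 had 13 of 393 windows of its own. Seen from the other side, 3 of 585 windows of mt-Co2, 3 of 582 of mt-Atp6 and 1 of 685 of mt-Co3 occurred in no nuclear transcript. mt-Co1 had 1000 of 1446 such windows. The remaining chromosome 1 copies, which were not members, covered mt-Nd3 (Gm28438, 345 bases, 1 difference, T3C), mt-Nd4l (Gm10222, 294 bases, 0 differences) and the first 876 bases of mt-Nd4 (Gm28439, 0 differences). As a result, 6 of 249 windows of mt-Nd3, 3 of 198 of mt-Nd4l and 502 of 1279 of mt-Nd4 occurred in no nuclear transcript. mt-Nd2 shared 30 windows with a copy on chromosome 2. mt-Nd1, mt-Nd5, mt-Nd6, mt-Cytb, mt-Atp8 and both ribosomal RNAs shared 0. Of shorter words of 31 bases, mt-Nd5 shared 302 of 1794 with a nuclear transcript, mt-Cytb 73 of 1114 and mt-Rnr2 42 of 1552. mt-Nd6 shared 36 of 489, mt-Atp8 13 of 174, and mt-Nd1 and mt-Rnr1 0. For mt-Co1 it was 968 of 1515. mt-Co2 shared 654 of 654 words, so none was private, mt-Atp6 648 of 651 and mt-Co3 753 of 754. mt-Nd4l shared 264 of 267, mt-Nd3 312 of 318, mt-Nd4 846 of 1348 and mt-Nd2 136 of 1008. Windows and words come from the reference transcripts. Alleles of the hybrid animals, sequencing errors and nuclear sequence outside annotated transcripts are therefore not covered.

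**Figure D1:**
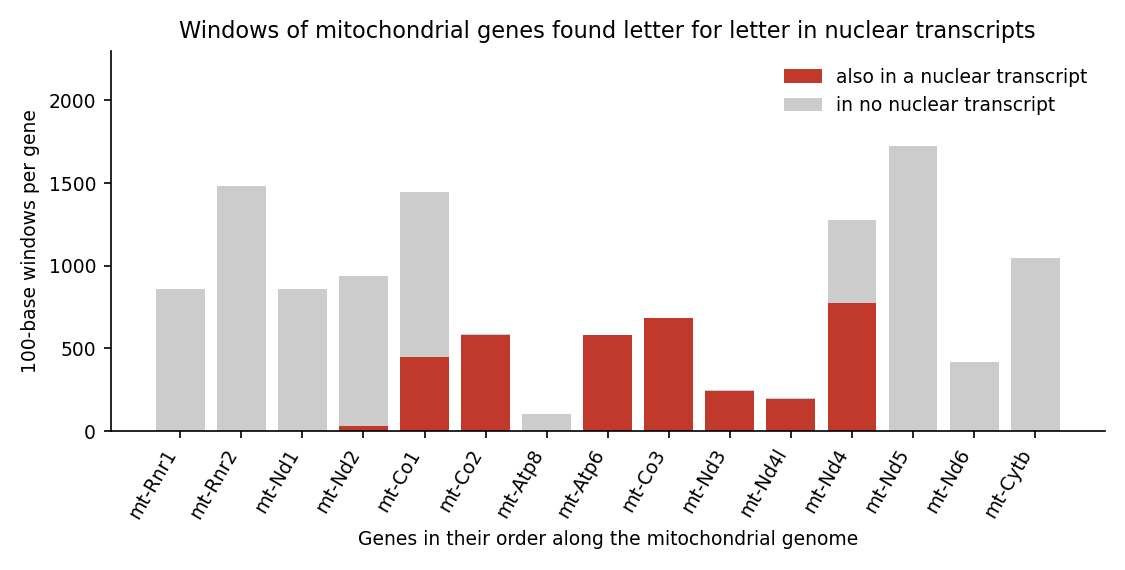
Number of 100-base windows of each mitochondrial protein gene and ribosomal RNA, divided into those that also occur in a nuclear transcript and those that do not, from GENCODE M21. mt-Co2, mt-Atp6, mt-Co3, mt-Nd4l and mt-Nd3 are shared nearly throughout, mt-Nd4 and mt-Co1 in part.

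The 37 genes of the mitochondrial genome held 26.2% of the expected counts of annotated genes in replicate 1 and 24.8% in replicate 2. The ribosomal RNAs took 16.4% ± 0.556 (SD, n = 2, as throughout) and the 13 protein genes 9.09% ± 0.428. The 4 pseudogenes added 2.34% ± 0.117, while their share was 1.38% in the second quantification and 5.44% on the TPM scale. All members together held 10367358 and 9305625 counts, or 28.6% and 27.1%, and the 95% Wilson intervals of such shares, which cover counting error only, were at most 0.0297 percentage points wide.

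The ribosomal RNAs were the highest members. mt-Rnr2, the large-subunit RNA (chrM, 1094 to 2675), was at 112788 and 106093 TPM in replicates 1 and 2 of the first quantification, and held 12.99% and 12.43% of all gene counts. mt-Rnr1, the small-subunit RNA (chrM, 70 to 1024), was at 57661 and 53386 TPM. The order of both was the same in each library, with mt-Rnr2 at 1.97 ± 0.0221 times the level of mt-Rnr1. The mean of the ribosomal RNAs was 9.05 ± 0.149 times the mean of the protein genes. The labels describe reduction of ribosomal RNA, and how far it acted on mt-Rnr1 and mt-Rnr2 was not tested.

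Cytochrome c oxidase, complex IV, held both the highest and the lowest protein gene of the first quantification. mt-Co1, its catalytic subunit (chrM, 5328 to 6872), was at 32687 and 30898 TPM in replicates 1 and 2. mt-Co3 (chrM, 8607 to 9390), a core subunit, was at 15084 and 13637 TPM. mt-Co2 (chrM, 7013 to 7696), the subunit that receives electrons from cytochrome c, was at only 761 and 605 TPM. Its copy Gm28661 stood at 24149 and 23169 TPM. So the intact gene was listed far below its pseudogene in both libraries, although the transcripts differ by 3 bases.

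mt-Cytb (chrM, 14145 to 15288), the mitochondrial subunit of complex III, was at 14068 and 12950 TPM, and these values overlapped those of mt-Co3. Of the ATP synthase, mt-Atp6 (chrM, 7927 to 8607), part of the proton channel, was at 12805 and 11608 TPM. mt-Atp8 (chrM, 7766 to 7969), a small membrane subunit, was at 3292 and 2885 TPM. These genes overlap by 43 bases on the same strand and are translated from 1 RNA, yet mt-Atp8 was listed at 0.253 ± 0.00605 times the level of mt-Atp6. Per annotated base this ratio was 0.152, and the second quantification listed mt-Atp8 at 0.

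The 7 complex I subunits were led by mt-Nd1 (chrM, 2751 to 3707), with 10391 and 9798 TPM in replicates 1 and 2. mt-Nd4 (10167 to 11544) had 8613 and 7236 TPM, mt-Nd4l (9877 to 10173) 7724 and 6646, and mt-Nd5 (11742 to 13565) 7364 and 6908. The libraries of mt-Nd4 overlapped with those of mt-Nd4l, and those of mt-Nd4l with mt-Nd5, so these neighbours in the order were not separated. mt-Nd3 (9459 to 9806) was at 4960 and 4971 TPM and mt-Nd2 (3914 to 4951) at 4779 and 3993. mt-Nd6 (13552 to 14070), the only protein gene on the minus strand, was lowest of complex I at 1311 and 1062 TPM. The median plus-strand protein gene was 6.44 ± 0.301 times its level. mt-Nd6 overlaps mt-Nd5 by 14 bases on opposite strands. This overlap is shorter than the read windows used here, so it was fixed in advance that these genes share 0 windows. Windows were compared in the direction of the transcripts only, and RNA antisense to mt-Nd6 was not covered. Whether counting used strand is stated in no label or header.

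mt-Nd4l and mt-Nd4, which overlap by 7 bases and are carried on 1 RNA, had a ratio of 0.908 ± 0.0154 in the first quantification and 0.0111 in the second. mt-Co1 over mt-Nd1 was 3.15 in both libraries, whereas mt-Co1 over mt-Nd2 was 6.84 in replicate 1 and 7.74 in replicate 2. mt-Cytb over mt-Nd5, which share no window with a nuclear transcript, was 1.91 and 1.87.

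**Figure D2:**
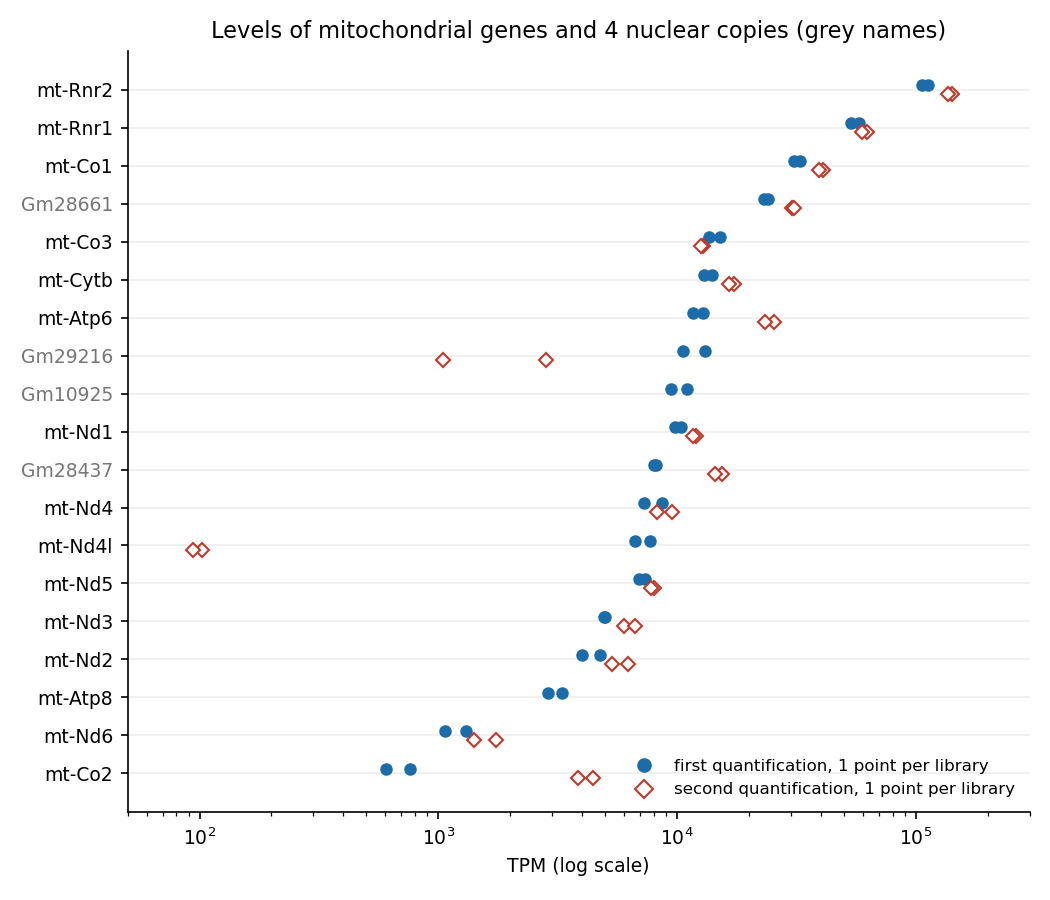
Level of each member with counts in TPM (log axis) in each library, by both quantifications; grey names mark the pseudogenes. Gm28661 lies far above mt-Co2 in both libraries, and the second-quantification values of Gm10925 and mt-Atp8 are not drawn, being near or at 0.

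The transfer RNAs were listed at 0 throughout. mt-Ta, mt-Tc, mt-Td, mt-Te, mt-Tf, mt-Tg, mt-Th, mt-Ti, mt-Tk, mt-Tl1, mt-Tl2, mt-Tm, mt-Tn, mt-Tp, mt-Tq, mt-Tr, mt-Ts1, mt-Ts2, mt-Tt, mt-Tv, mt-Tw and mt-Ty had 0 counts in both libraries and both quantifications. They are 59 to 75 bases long, so none holds a 100-base window, and the first quantification gave them an effective length of 0. No level of a transfer RNA can therefore be read from these tables. The shortest and the longest are shown for scale, mt-Ts2 (chrM:11613-11671) and mt-Tl1 (chrM:2676-2750), both on the plus strand, for a serine and a leucine transfer RNA.
mt-Ts2: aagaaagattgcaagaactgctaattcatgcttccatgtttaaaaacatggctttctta
mt-Tl1: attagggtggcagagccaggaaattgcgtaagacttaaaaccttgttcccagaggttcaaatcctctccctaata

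In the pair of mt-Co2 and Gm28661 most counts were on the pseudogene. In the first quantification mt-Co2 had 12515 and 9609 counts in replicates 1 and 2, while Gm28661 had 395094 and 365936. The mitochondrial gene thus received 3.07% and 2.56% of the pair's counts. In the second quantification mt-Co2 had 44424 and 36331 counts and Gm28661 301067 and 286796, so the gene's part was 12.9% and 11.2%. The first over the second quantification was 0.282 and 0.264 for mt-Co2 alone, but 1.17 ± 0.0124 for the sum of the pair. For reads that match both transcripts in full, the sequence does not say which was transcribed, and the source of these reads was not tested.

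mt-Atp6 and Gm10925 were divided differently by the quantifications. The first gave mt-Atp6 209499 and 183343 counts and Gm10925 179910 and 147856, so that the gene held 53.8% and 55.4% of the pair. In the second, mt-Atp6 held 251994 and 218616 counts, and Gm10925 0.00224 and 0.00988. Here the sum also differed, with the first at 1.53 ± 0.0214 times the second. The gene alone differed less, at 0.831 and 0.839.

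For mt-Co3 and Gm28437 the gene had 290458 and 253497 counts and the copy 157538 and 148683 in the first quantification. In the second the gene had 164980 and 151901 and the copy 199047 and 173960. mt-Co3 therefore held 64.8% and 63.0% of the pair in the first quantification and 45.3% and 46.6% in the second. The sum was 1.23 ± 0.00250 times as high in the first. Which member of this pair was the larger thus depended on the quantification.

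For mt-Co1 and Gm29216, the sum differed little between the quantifications but the pseudogene differed widely. mt-Co1 had 1328681 and 1212465 counts in the first quantification and Gm29216 144529 and 113128, or 90.2% and 91.5% in the gene. The second gave mt-Co1 1419040 and 1275690 and Gm29216 13585 and 4723, or 99.1% and 99.6%. The sum was 1.03 ± 0.00492 times as high in the first, while Gm29216 alone was 10.6 and 24.0 times as high. Over all 4 pairs, the pseudogenes took 32.3% and 31.9% of the counts in the first quantification and 21.5% and 21.7% in the second. On the TPM scale the first over the second was below 1 for the sums of mt-Co2 (0.702), mt-Atp6 (0.918) and mt-Co3 (0.812), so the direction of these differences in sums depended on the correction for length.

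**Figure D3:**
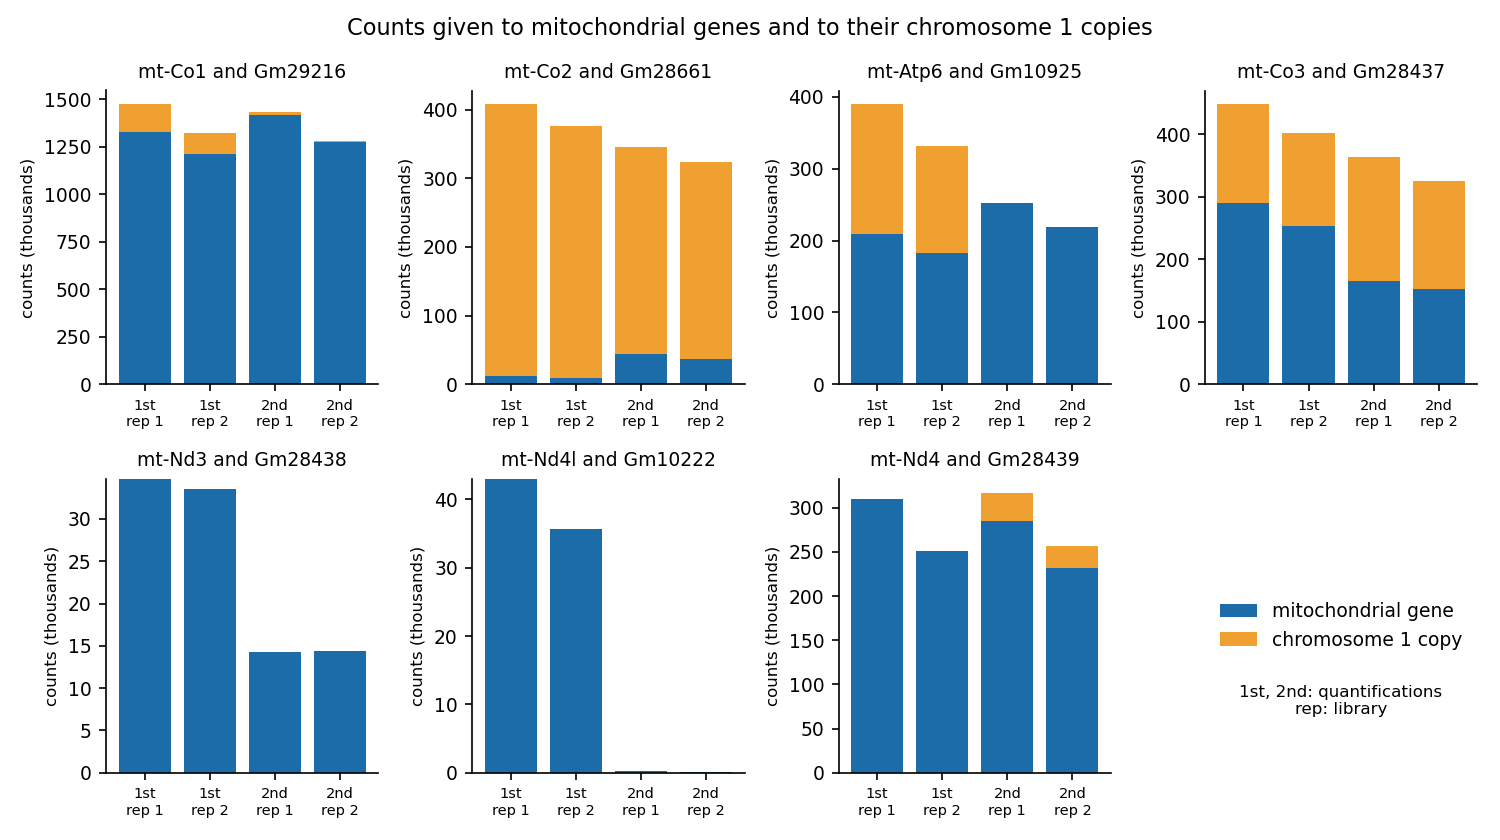
Counts of each mitochondrial gene and its chromosome 1 copy, by quantification and library. The mt-Co2 pair is nearly all in Gm28661 in both quantifications, while the mt-Atp6 pair is shared in the first and almost wholly in mt-Atp6 in the second.

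The deposited uncertainty of the counts was largest in the pairs of mt-Co3, mt-Co2 and mt-Atp6. The posterior SD of the count was 7979 and 7090 for mt-Co2 in replicates 1 and 2, which is 63.8% and 73.8% of its count, and the same to the nearest count for Gm28661. For Gm28661 this was 2.02% and 1.94% of the count. The posterior SD of mt-Co3 was 9086 and 8771 and that of mt-Atp6 4791 and 5466, again shared with the copy. Other genes with a copy had a smaller posterior SD: mt-Nd4l 672 and 349, mt-Co1 615 and 573, mt-Nd3 31.7 and 26.4, and mt-Nd4 8.69 and 8.17. For mt-Nd1, mt-Nd6, mt-Atp8, mt-Rnr1 and mt-Rnr2, which share no window with a nuclear transcript, it was 0. For mt-Cytb and mt-Nd5, which also share none, it was at most 0.03 and 0.04. The posterior mean TPM of mt-Co2 was 3183 and 3079, and its deposited interval of 2338 to 4026 TPM in replicate 1 and 2198 to 3829 in replicate 2 lay wholly above its TPM of 761 and 605. For Gm28661 the posterior mean was 21131 and 20106 TPM.

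The 3 neighbouring pseudogenes that were not members were all at 0 in the first quantification. The first gave mt-Nd4 309676 and 251139 counts and Gm28439 0, while the second gave mt-Nd4 284577 and 231713 and Gm28439 32237 and 24715. The sum of this pair was nearly the same, at 0.977 and 0.979 for the first over the second. Gm10222 and Gm28438 were at 0 in both quantifications. A nearly complete nuclear match was thus not always accompanied by counts on the copy. mt-Nd4l had 42990 and 35708 counts in the first quantification, with Gm10222 at 0. Of its 198 windows, 3 occurred in no annotated nuclear transcript.

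Outside this row, 51 further nuclear genes aligned to a mitochondrial transcript over at least 100 bases, and 41 of them were at 0 in both libraries of the first quantification. Of these 41, 7 had at least 1 count in the second. All 51 together held 897 and 864 expected counts in replicates 1 and 2 in the first quantification, and 1781 and 1561 in the second. Of the 3 that share a 100-base window, all on chromosome 2, Gm13340 (97.6% identity to mt-Co1) had 243 and 232 counts in the first quantification and 975 and 827 in the second. In the first, Gm13341 (95.9% to mt-Co2) had 154 and 150 and Gm13339 (96.7% to mt-Nd2) 0 and 2. They were chosen after their values were seen. In the first quantification all lay far below the 4 chromosome 1 pseudogenes.

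Adding each copy's counts to its gene changed the profile along the genome. Given in counts of the first quantification per start position of a 100-base read, mt-Co2 had 21.4 and 16.4 in replicates 1 and 2, the lowest of the 13 protein genes. With Gm28661 added it had a mean of 669, below mt-Co1, which had 968 with Gm29216 and 879 alone. mt-Atp6 had 619 with its copy and 337 alone, and mt-Co3 621 and 397. With the copies added, mt-Co2, mt-Co3 and mt-Atp6, which lie downstream of mt-Co1, were thus between 619 and 669. The next genes were mt-Cytb at 373, mt-Nd1 at 279 and mt-Nd4 at 219. mt-Atp8, between mt-Co2 and mt-Atp6, was at 85.4, and mt-Nd6 at 32.8.

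**Figure D4:**
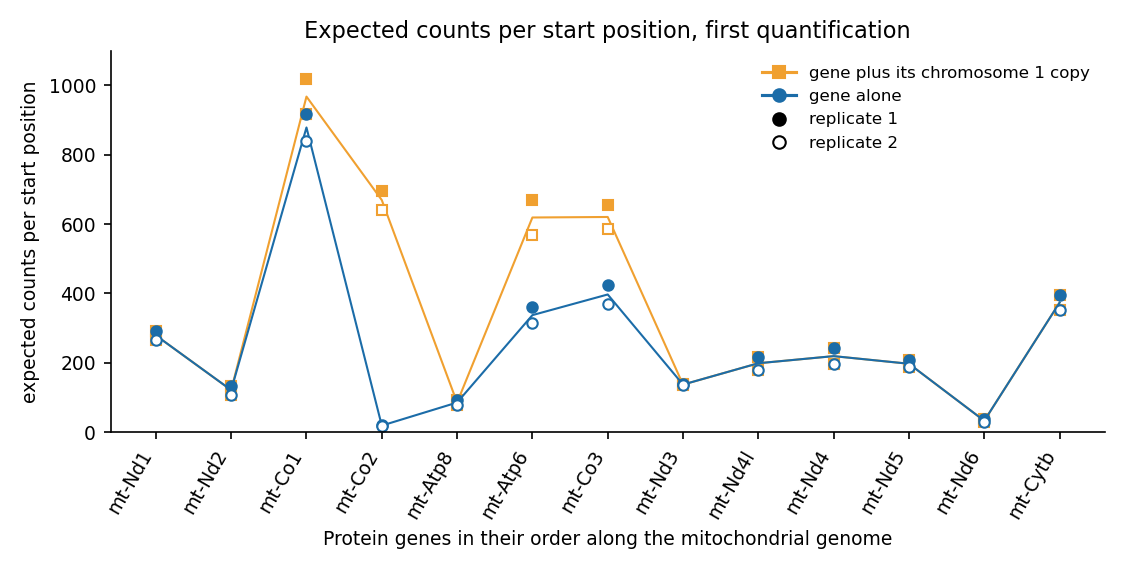
Expected counts per start position of a 100-base read for the 13 protein genes in genome order, with the chromosome 1 copy added and for the gene alone. mt-Co2 is the lowest gene alone and the second highest with Gm28661.

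Between the libraries no member was called different in the first quantification, and 1 was in the second. A gene was called different when its CPM was at least 1.5-fold apart and its mean count at least 50. Of the 19 members with counts, 0 were called, against 4.09% of the 12876 genes tested, a share at which few calls or none would be found in 19 genes. In the second quantification 1 of 17 members tested was called, against 3.89% of the 13148 genes tested. This was Gm29216, with 13585 counts in replicate 1 and 4723 in replicate 2, a CPM ratio of 2.71. In direction the members went together in the first quantification. There 18 of 19 were higher in replicate 1 by CPM, against 36.7% of all genes tested. The median log2 difference was 0.12 against -0.05. mt-Nd3 was the exception, with 959 and 978 CPM in replicates 1 and 2, a ratio of 0.981 (95% exact counting interval 0.966 to 0.996). mt-Co2 had 346 and 280 CPM, a ratio of 1.24 (1.204 to 1.270), but by posterior mean TPM its ratio was 1.03. Next came mt-Nd6 at 1.21 (1.18 to 1.24) and Gm29216 at 1.21 (1.203 to 1.222), with ratios of 1.24 and 1.23 by posterior mean TPM. Gm28437 was at 1.01 (0.999 to 1.01). CPM are shares of 1 total. With TMM scaling, DESeq2 size factors or totals outside the members all 19 were higher in replicate 1. In the second quantification 15 of 17 members tested were higher by CPM, against 37.8% of all genes tested. The exceptions there were Gm28661 and mt-Nd3, at ratios of 0.990 and 0.936, and the median log2 difference was 0.075. In bulk tissue, fewer cells of a type and less RNA per cell cannot be told apart.

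Markers of other cell types are given beside these values. The 4 airway markers were all called different between the libraries, at a summed 153 TPM in replicate 1 and 9.42 in replicate 2. Of the red blood cell, macrophage, brown fat and fibroblast markers 0 were called, against 4.09% of all genes tested. The 5 red blood cell markers summed to 35941 and 27763 TPM in replicates 1 and 2, and all 5 were higher in replicate 1 by CPM and by TPM. The macrophage markers summed to 58.2 and 45.1 TPM, with 4 of 4 higher in replicate 1 by CPM and 2 of 4 by TPM, and Lyz2 alone was at 38.9 and 25.9 TPM. The brown fat markers, which include the heart gene Cox7a1 at 783 TPM, summed to 899 and 914 TPM and the fibroblast markers to 933 and 899 TPM. Of the brown fat markers, 1 of 5 was higher in replicate 1 by CPM and 2 of 5 by TPM. In replicates 1 and 2 Ucp1 was at 32.6 and 47.8 TPM, Cidea at 32.5 and 39.9 and Ppargc1a at 50.2 and 44.8. No marker of any list was at 0 in both libraries. Their part in the differences of the members was not tested.

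**Figure D5:**
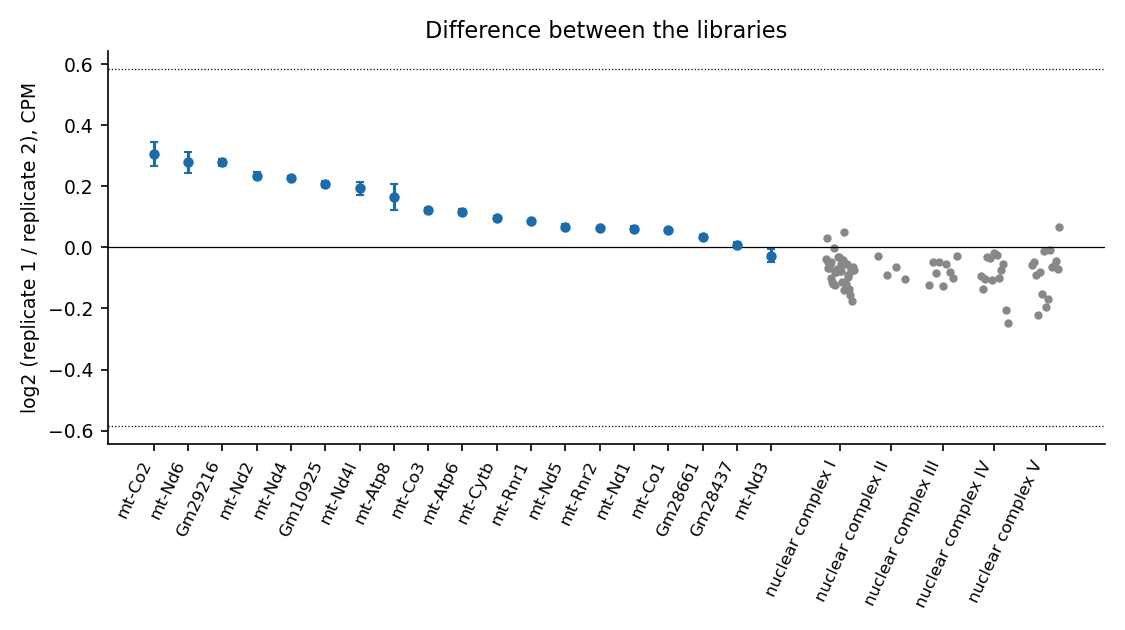
Ratio of CPM (first quantification) in replicate 1 over replicate 2 for the 19 members with counts; bars are exact 95% counting intervals and dotted lines mark a 1.5-fold difference. All ratios of the members lie between 0.981 and 1.24. Grey points are the 78 nuclear genes of complexes I to V, between -0.246 and 0.066 on the log2 axis.

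The quantifications come from the same libraries and differed strongly in some members. A gene was called when its TPM was at least 2-fold apart in the same direction in both libraries. This held for 5 of 19 members, or 26.3%, against 9.32% of the 14083 genes tested, and since the members were chosen with such differences known, the count is a description. The first quantification was above the second in 4, against 3.76% of all genes, and below it in 1, against 5.55%. Those above were Gm29216 (13082 and 10607 TPM in the first, 2814 and 1049 in the second), Gm10925, mt-Nd4l and mt-Atp8. mt-Nd4l was at 102.5 and 93.8 TPM in the second, with ratios of 75.3 and 70.9, and mt-Atp8 was listed at 0 there. mt-Co2 was the 1 below, at 761 and 605 TPM in the first and 4436 and 3864 in the second. Just outside the threshold were mt-Atp6 at ratios of 0.504 and 0.495 and Gm28437 at 0.529 and 0.555.

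mt-Atp8 and mt-Nd4l are the shortest protein genes, at 204 and 297 bases, and mt-Nd3, at 348 bases, had 2.43 and 2.33 times as many counts in the first quantification as in the second. mt-Atp8 shares no window with a nuclear transcript. In the second quantification the effective length of mt-Atp8 was 45.0 and 42.8 bases in replicates 1 and 2, against 105 in the first. For mt-Nd4l it was 65.6 and 63.1, against 198. Whether transcript length set these values was not tested. Among the genes without a copy on chromosome 1, counts in the first over the second were 1.01 and 1.00 for mt-Nd2, 1.03 and 1.02 for mt-Cytb, 1.04 and 1.04 for mt-Nd5 and 1.16 and 1.16 for mt-Nd1. They were 1.25 and 1.25 for mt-Rnr1, 0.929 and 0.931 for mt-Rnr2, and 1.63 and 1.68 for mt-Nd6. The ratio of mt-Nd6 was thus larger than that of any of the 4 pair sums. mt-Nd6 shares no 100-base window with a nuclear transcript, although Gm11408, named after its values were seen, aligned to it over 519 bases at 93.6% identity and had 5 and 2 counts in the second quantification.

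The order of the protein genes differed between the quantifications. mt-Co1 was at rank 1 in both, at 31793 ± 1265 TPM in the first and 40041 ± 1179 in the second. mt-Atp6 was at rank 4 in the first, at 12207 ± 846 TPM, and at rank 2 in the second, at 24416 ± 1368. mt-Co2 was at rank 13 in the first, at 683 ± 110 TPM, and at rank 10 in the second, at 4150 ± 405. mt-Cytb, mt-Nd1, mt-Nd4, mt-Nd5, mt-Nd3, mt-Nd2 and mt-Nd6 followed each other in this order in both. However, mt-Nd4 and mt-Nd5 overlapped between libraries in the first, and mt-Nd3 and mt-Nd2 in the second.

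The nuclear genes that build the same complexes were all expressed, at lower levels. All 78 nuclear subunits of complexes I to V reached 1 TPM, with a median of 458 TPM, while the median of the 13 mitochondrial protein genes was 7185 TPM. Between the libraries 0 of 78 were called different, against 4.09% of all genes. By CPM 3 of 78 (Ndufa3, Ndufa12 and Atp5g2) were higher in replicate 1, against 36.7% of all genes, with a median log2 difference of -0.07. This count depended on the scale: it was 12 of 78 by TPM, 16 with TMM scaling and 29 with DESeq2 size factors, where the median was -0.01. The list of 37 complex I genes had a median of 321 TPM. Its highest gene was Ndufa4 at 1106 ± 12.2, whose product is now assigned to complex IV, and the median without it was 315 TPM. Next were Ndufa3 at 763 ± 25.0 and Ndufb8 at 718 ± 3.39. Complex II, which has no mitochondrial gene, had a median of 412 TPM over 4 subunits (Sdha 563 ± 2.94, Sdhc 427 ± 6.72, Sdhb 397 ± 7.78). Complex III had 617 TPM over 9 (Uqcrq 1032 ± 57.0, Uqcrc1 945 ± 2.77, Uqcrh 781 ± 22.1). For complex IV the median was 783 TPM over 13, with Cox6b1 at 1896 ± 83.0, Cox4i1 at 1821 ± 72.0 and Cox6c at 1077 ± 44.6. For the ATP synthase it was 667 TPM over 15, and its catalytic subunit Atp5b was the highest of the 78 at 3573 ± 115, ahead of Atp5a1 at 1703 ± 24.0 and Atp5g3 at 1557 ± 51.0. The second quantification gave higher medians for complexes III, IV and V, at 1004, 1184 and 1044 TPM.

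The genes that make and handle mitochondrial RNA had lower medians. Of 14 genes of mitochondrial transcription and replication, 13 reached 1 TPM and the median was 9.89 TPM, led by the DNA polymerase Polg at 24.0 ± 1.53, the DNA-packaging factor Tfam at 22.7 ± 1.40 and Mterf3 at 20.4 and 19.6 TPM in replicates 1 and 2. All 23 genes of RNA processing, modification and decay did so, with a median of 10.9 TPM, led by Fastk at 102 ± 0.0212, the RNA-binding protein Grsf1 at 81.0 ± 3.95 and Hsd17b10, a subunit of mitochondrial RNase P, at 76.1 ± 1.36. Of 12 translation factors 11 reached 1 TPM, with a median of 21.2 TPM, led by the elongation factors Tufm at 124 ± 2.98 and Gfm1 at 86.8 ± 1.82 and the membrane insertase Oxa1l at 53.4 ± 1.29. In these 3 lists 0 genes were called different between the libraries, against 4.09% of all genes tested.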

How the data were processed

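Total RNA sequencing of 2 heart libraries was analysed from the processed tables. The readme files deposited with them name assembly mm10 and GENCODE M21, whereas the programs behind the values, their versions and any use of strand are not given in sources used here. The gene tables hold, per the file headers, expected counts (the first quantification), TPM, a posterior mean TPM and the bounds of its interval, a score of precision for 1 library. The other tables hold, per the file headers, estimated counts and TPM per transcript (the second quantification), summed here per gene. Length columns were used as deposited by the authors.

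Only the 55536 annotated genes were compared, and 86 of them have no value in the second quantification. Transcripts of GENCODE M21 were aligned with BLAST+ 2.17.0+ (E at most 1e-10, at least 100 bases) and Biopython 1.88, and compared by 100-base windows and 31-base words. With 1 group of 2 libraries there was no test, and genes were called by rules of size: CPM 1.5-fold apart with a mean count of at least 50 between libraries, TPM 2-fold apart in both libraries between quantifications with at least 1 TPM. Ratios carry exact Clopper-Pearson intervals and shares Wilson intervals, at 95%, for counting error only. The rules were tested on simulated data. Scaling factors came from edgeR 4.0.16 and DESeq2 1.42.0 under R 4.3.3, other values from Python 3.11.15, numpy 2.4.6, pandas 2.3.3 and scipy 1.17.1.

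The members and lists were chosen with earlier results of these data known. Named are all members, the pseudogenes within 20 kb of the 4 with a mean count of at least 10, and the 3 highest genes of each nuclear list. Neighbouring and chromosome 2 copies were named after their values were seen. Alternatives were another normalization, filter, fold, quantification and scale, and leaving out each library.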

Additional observations from a re-analysis of the deposited data

How the results depend on the processing

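Of the 19 member levels, 18 moved by more than the SD between libraries in the second quantification and 5 by posterior mean TPM. With 2 libraries, a mean cannot move by more than their SD when 1 is left out, so that check says nothing about stability. The pseudogenes' share of counts was 1.38% in the second quantification, 5.44% of TPM and 2.80% without the ribosomal RNAs. For the protein genes it was 11.97% of TPM and 10.9% without the ribosomal RNAs, and for all members 26.7%, 34.1% and 13.7% in these 3 settings. Between the libraries 3 members were called at 1.2-fold (mt-Co2, mt-Nd6 and Gm29216, against 20.6% of all genes). In the second quantification 1 was called (Gm29216, against 3.89% of all genes). Directions under other scalings, and complex I without Ndufa4, were added after seeing the data. Between the quantifications 6 of 19 members were called by CPM, with mt-Nd3, against 930 of 14283 genes tested. Without replicate 1 the count was also 6 of 19, with mt-Atp6, against 1578 of 14083 genes.

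On TPM the pair sums, first over second, were 0.702 for mt-Co2, 0.918 for mt-Atp6, 0.812 for mt-Co3 and 1.04 for mt-Co1, so on this scale the direction turned for the first 3 pairs. In the second quantification and per annotated base, mt-Rnr2 over mt-Rnr1 was 2.28 and 2.06, the mean ribosomal RNA over the mean protein gene 9.26 and 9.56, the median plus-strand gene over mt-Nd6 5.36 and 7.38, and mt-Co1 over mt-Nd1 3.37 and 3.29. In the second quantification, by posterior mean and per base, mt-Atp8 over mt-Atp6 was 0, 0.260 and 0.152, and mt-Nd4l over mt-Nd4 0.0111, 0.887 and 0.652. The list medians in the second quantification were 425.4, 425.1, 1004, 1184 and 1044 TPM for complexes I to V, 11.8 for transcription, 12.6 for RNA processing and 27.0 for translation. Leaving out a library gave 629 to 666 TPM for complex V. The cause of these differences was not tested.

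No paired analysis was possible because there was only 1 group. With 2 libraries, an SD rests on 2 values, and the depth limits only members near 0. The division of reads within a pair rests on at most 3 private windows for mt-Co2, mt-Atp6 and mt-Co3, whatever the depth.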
